A study of Homo sapiens with 9 samples.

Results

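The comparison described here set human embryonic stem cells given an siRNA against TCF7L1 against the same cells given a non-silencing siRNA. An siRNA is a short double-stranded RNA that directs the cleavage of transcripts matching it, and a non-silencing one controls for the transfection itself. All were H9 cells, a widely used embryonic stem cell line, and all samples were named day 3. The comparison used 6 of the 9 samples of the series, 3 transfected with each siRNA, and the other 3 samples were untreated H9 cells with no siRNA. No source used here gives the sequence, number or dose of the siRNAs. Whether the replicates came from separate cultures is likewise unstated, so the p-values measure only the spread between these samples, which may be technical. The submitters' design text gives the purpose as finding genes that TCF7L1 may regulate in these cells. Each sample was measured on 1 Affymetrix whole-transcript array, and 17955 genes with a chromosome, a single gene symbol and a signal above the 25th percentile of the array entered the comparison, of 20212 such genes on the array. A difference below is on the log2(signal + 16) scale, TCF7L1 siRNA minus non-silencing siRNA, so that 1 stands for a doubling and the change of dim genes is understated.

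TCF7L1 is one of the TCF/LEF proteins, which bind DNA at Wnt target genes. Without a Wnt signal they recruit Groucho corepressors, and with one they bind beta-catenin, which turns the same sites into activating ones. TCF7L1 is known mainly as the repressing member of the family, and in mouse embryonic stem cells it occupies many of the genes bound by the pluripotency factors. The Nodal and Activin pathway, which maintains human pluripotent cells and also starts mesendoderm formation, shares several of its target genes with the Wnt pathway.

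The defining genes of pluripotent cells were bright in both groups. Of 10 such markers, 9 were tested, and their summed signals lay between 25970 and 26470 in the control siRNA group and between 26160 and 28040 in the TCF7L1 siRNA group. The signals of POU5F1, the central pluripotency factor, were 5235, 5002 and 5135 against 5373, 5153 and 5309, and the ranges overlapped. Markers of other cell types were dimmer. The sum of 10 fibroblast markers, 7 of them tested, ran from 3231 to 3592 in the control siRNA group. In the TCF7L1 siRNA group it ran from 2888 to 3235. DCN and FAP, included in it, lay below the 25th percentile on all 6 arrays. The sum of 5 neural progenitor markers ran from 2412 to 2810 and from 2900 to 3469, and most of it was OTX2, a homeobox factor that undifferentiated human stem cells also express. The sum of 5 trophoblast or amnion markers, 4 of them tested, ran from 414.8 to 523 and from 411.6 to 486.9. CGA, included in it, lay below the 25th percentile. In bulk RNA, fewer cells of a type and less RNA per cell cannot be told apart.

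The arrays themselves were not equal in spread. The interquartile range of log2 signals was 3.28, 3.08 and 2.95 on the arrays of the non-silencing siRNA and 3.22, 2.95 and 3.10 on those of TCF7L1 siRNA, so each group held wide and narrow arrays, and median signals lay between 104 and 113. The third array of the non-silencing siRNA and the second of TCF7L1 siRNA were the narrowest of the 9. A second fit, given below, holds this spread as a covariate.

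TCF7L1 itself fell at the threshold used throughout, an adjusted p under 0.05, and no other gene did. Its 3 control signals, 1709, 1703 and 1625, stood against 388.8, 345.8 and 352 under its own siRNA, beside 1473, 1842 and 1667 without siRNA. The 2 siRNA groups were far apart, and no array with TCF7L1 siRNA came near any other. The difference was -2.17 (SE 0.10, limma adjusted p = 7.26e-06). An exact permutation test on the 6 arrays alone gave p = 0.1, the smallest that 3 samples against 3 allow, and the same held for each of the 5 genes that rose. The other members of the family and their corepressors were much closer together. Of 10 tested TCF/LEF factors and Groucho cofactors, 9 did not pass. AES, a short Groucho-related protein, differed by -0.34 (SE 0.11) with signals of 726.4, 662.5 and 630.4 against 605.7, 469.4 and 511.1. TLE3, a full-length Groucho corepressor, differed by 0.18 (SE 0.09). The groups of both did not overlap. The signals of LEF1, the member of the family that mainly activates, were 80.36, 70.65 and 80.76 against 104.2, 77.7 and 81.46, with 1 high array and overlapping groups.

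Since TCF/LEF proteins bind DNA through the core CTTTG followed by A or T, the promoters of the 5 genes that rose were searched for the 6 letters CTTTGA or CTTTGT on either strand, in the 250 bases before each RefSeq start (GRCh38.p14). Such a word stood in 22.8% of 35116 promoters of that length. DACT1 has 3 listed starts, of which 2 carry a word, SMARCA2 has 4, of which 1 carries a word, and the single promoters of FST, NODAL and THBS2 carry none. A match is a string of letters and not a site. The 3 promoters with a word, and that of NODAL for comparison, are printed 5′ to 3′ on the strand of the gene, with the word in capitals.
DACT1, chr14:58633811-58634060, plus strand: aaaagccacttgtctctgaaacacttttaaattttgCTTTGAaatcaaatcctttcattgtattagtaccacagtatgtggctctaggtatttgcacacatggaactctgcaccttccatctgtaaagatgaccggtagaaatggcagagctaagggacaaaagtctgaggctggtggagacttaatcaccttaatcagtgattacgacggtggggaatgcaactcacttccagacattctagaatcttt
DACT1, chr14:58638587-58638836, plus strand: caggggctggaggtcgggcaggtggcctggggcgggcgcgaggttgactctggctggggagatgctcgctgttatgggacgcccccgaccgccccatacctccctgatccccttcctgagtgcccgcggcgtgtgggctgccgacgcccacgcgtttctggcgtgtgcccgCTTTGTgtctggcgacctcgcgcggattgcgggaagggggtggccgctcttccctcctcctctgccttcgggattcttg
SMARCA2, chr9:2021695-2021944, plus strand: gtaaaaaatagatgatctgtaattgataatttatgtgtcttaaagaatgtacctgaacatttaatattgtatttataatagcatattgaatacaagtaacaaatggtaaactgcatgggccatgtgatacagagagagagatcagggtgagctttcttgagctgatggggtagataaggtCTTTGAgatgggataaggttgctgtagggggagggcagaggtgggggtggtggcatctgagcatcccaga
NODAL, chr10:70441682-70441931, minus strand: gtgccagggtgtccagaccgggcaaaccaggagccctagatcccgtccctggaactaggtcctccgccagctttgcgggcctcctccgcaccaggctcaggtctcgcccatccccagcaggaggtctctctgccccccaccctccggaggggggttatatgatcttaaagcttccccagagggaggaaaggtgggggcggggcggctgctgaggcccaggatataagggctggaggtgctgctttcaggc
The word starts at -214 and at -79 from the start in the 2 promoters of DACT1 and at -70 in that of SMARCA2. Among the genes with a difference of at least 0.5 in size and groups that did not overlap, 9 of 26 higher and 4 of 14 lower genes with a listed promoter had a word in at least 1 of their promoters, against 22.9% of 13477 tested genes. The 14 include TCF7L1 itself and the near-identical copies PGA3, PGA4 and PGA5, none of which has a word, so the 2 shares are not compared.

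The 5 genes that rose encode regulators of Wnt and Nodal signalling, a chromatin ATPase and a matrix protein. DACT1, a Dishevelled-binding modulator of Wnt signalling, had signals of 195.2, 167.9 and 177.2 in the control group against 588.8, 510.1 and 584.7 after knockdown. All 3 arrays of TCF7L1 siRNA were far above the other group, and the difference was 1.56 (SE 0.10, limma adjusted p = 9.6e-05). NODAL, the ligand that specifies mesendoderm, had signals of 35.59, 35.11 and 29.16 against 95.41, 95.68 and 95.28. The lower values were at the dim end of the scale, the third lying under the 25th percentile of its array, so that the difference of 1.18 (SE 0.09, adjusted p = 0.00061) depends most on the offset. SMARCA2, one of the alternative ATPases of the SWI/SNF chromatin remodelling complex, had signals of 77.66, 70.48 and 65.71 against 197.7, 156.7 and 166.8, a difference of 1.12 (SE 0.11, limma adjusted p = 0.00353). FST encodes follistatin, a secreted protein that binds activin. Its signals were 130.7, 158.3 and 120.9 against 306.5, 277.5 and 393.1, with a difference of 1.16 (SE 0.14, limma adjusted p = 0.0219). THBS2 encodes the matrix glycoprotein thrombospondin 2. Its signals of 250.8, 239.3 and 261.9 against 464.9, 463.5 and 601 gave a difference of 0.97 (SE 0.13, limma adjusted p = 0.0455), the one nearest to the threshold. With each of the 9 arrays left out in turn TCF7L1, DACT1, NODAL and SMARCA2 passed every time, FST in 3 of the 9 fits and THBS2 in none. Past that threshold were 0.0278% of the 17955 genes in the higher direction and 0.00557% in the lower, or 0.0263% of all 22784 probe sets tested and 0.0307% of the 19516 with a chromosome and 1 symbol. The 3 untreated samples lay beside the non-silencing group in all 6 genes, for instance at 190.7, 193.9 and 170.8 for DACT1 and at 207.9, 262.8 and 270.2 for THBS2.

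**Figure D1:**
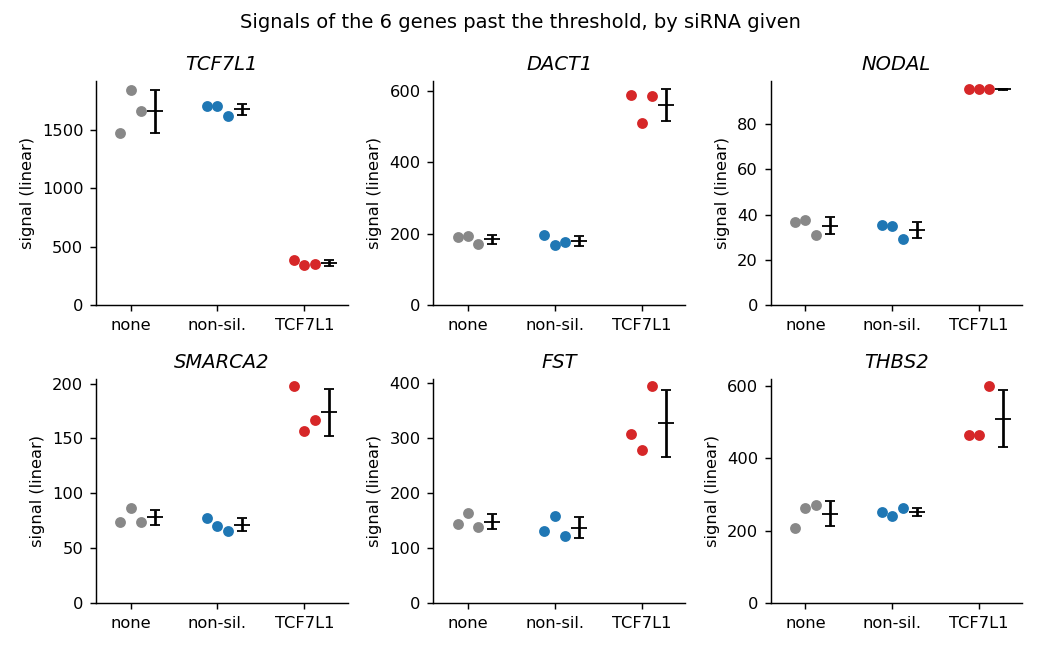
Signals on a linear scale of the 6 genes past the threshold, 1 point for each of 3 samples given no siRNA, the non-silencing siRNA and TCF7L1 siRNA, with the mean and SD beside the points. TCF7L1 sat between 345.8 and 388.8 after its siRNA, and the 5 other genes were higher there than in all 6 other samples.

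The genes around the 6 loci stayed close to 0. DACT1 lies on chromosome 14 (59104859 to 59115039, plus strand), NODAL on chromosome 10 (72192071 to 72201466, minus strand), SMARCA2 on chromosome 9 (2015342 to 2193624, plus strand), FST on chromosome 5 (52776417 to 52781943, plus strand) and THBS2 on chromosome 6 (169615875 to 169654139, minus strand), in the deposited positions on build 37. TCF7L1 lies on chromosome 2 (85360583 to 85537505, plus strand). Within 500 kb of their starts there were 44 other tested genes, 16 near TCF7L1, 14 near NODAL, 7 near DACT1, 4 near THBS2, 3 near FST and 0 near SMARCA2. The differences of these neighbours ran from -0.139 to 0.22. For 1 of them, RNF181 near TCF7L1, a gene of a ubiquitin ligase, the groups did not overlap, at a difference of -0.09.

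Across all genes the differences were small. The median was -0.01, the middle 95% ran from -0.226 to 0.209, and 96.9% of the genes lay within 0.26 of 0. A difference above 0 was seen in 46.2% of the genes. At an unadjusted p under 0.05 there were 229 higher genes (1.28%) and 280 lower ones (1.56%). The groups did not overlap in 346 higher genes (1.93%) and 623 lower ones (3.47%), 5.4% in all, so that 35.7% of such genes were higher. That split turned with 1 array: without TCF7L1 replicate 2 there were 1529 higher and 924 lower genes, or 62.3% higher, and with the other arrays of the siRNA groups left out in turn the share ran from 26.5% to 46.7%. After quantile normalization of the arrays this share was 47.6% of 1596 genes and the median difference of all genes was -0.001. Over the range of signals, groups were apart in the lower direction in 2.34% of the dimmest 4489 genes and in 5.21% of the brightest 4489, and in the higher direction in 1.87% and 2.18%.

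**Figure D2:**
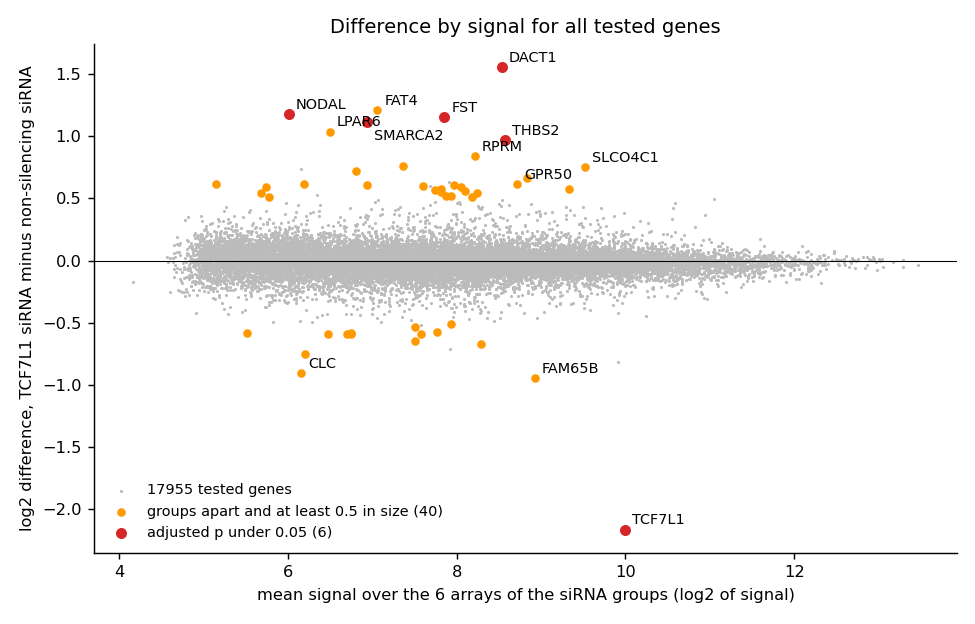
Log2 difference of each of 17955 tested genes (vertical) against its mean signal over the 6 arrays (horizontal, log2). Red points are the 6 genes past the threshold, orange points the 40 others with groups apart by at least 0.5, and the grey cloud lies mostly within 0.26 of 0.

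A wider set of 46 genes had groups that did not overlap and a difference of at least 0.5 in size, 31 higher (0.173% of the genes) and 15 lower (0.0835%). The excess of higher genes also varied with single arrays. There were 35 higher and 37 lower genes without non-silencing replicate 3 and 38 and 52 without TCF7L1 replicate 1. Without TCF7L1 replicate 3 there were 30 and 28. A clear excess stayed without the other arrays of the siRNA groups. The counts were 54 and 10 without non-silencing replicate 1, 36 and 20 without its replicate 2, and 54 and 15 without TCF7L1 replicate 2. The 46 genes lie on 18 chromosomes. Of the 31, 26 were above all 6 other arrays, untreated ones included, and all 15 lower genes were below all 6. Over all genes 166 (0.925%) were above and 291 (1.62%) below all 6, but the 46 were chosen for groups that did not overlap, so the shares are not compared. Apart from the 6 genes above, none of these 40 passed the threshold, and the values below describe them.

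The other genes of this set described here that act in transcription and chromatin were mostly higher. NR5A2, an orphan nuclear receptor that can activate POU5F1 in mouse cells, had signals of 385.8, 324.2 and 334.6 against 562.7, 482.9 and 644.5, a difference of 0.66 (SE 0.13). LMO3, a LIM-only cofactor known from neural development, had 147.7, 123.6 and 85.72 against 248.2, 207.3 and 174.8 (0.76, SE 0.19). The TCF7L1 siRNA arrays were all higher for both genes, although the arrays of LMO3 spread widely within each group. SALL3, a spalt-type zinc finger protein, was tight in both groups, with 173, 173.3 and 163.9 against 268.7, 247.2 and 264.9 (0.57, SE 0.10). HEY2, a basic helix-loop-helix repressor downstream of Notch, had 208.5, 213.8 and 233.8 against 293.6, 321.6 and 376.7 (0.56, SE 0.14). THRB, a thyroid hormone receptor, had a difference of 0.55 (SE 0.15), and STOX2, a winged-helix protein, one of 0.61 (SE 0.10). For SMYD2, a lysine methyltransferase, signals were 110.7, 93.92 and 76.77 against 151.1, 126.2 and 177 (0.61, SE 0.14). BNC1, a zinc finger protein of epithelia and germ cells, went the other way, with 55.98, 56.96 and 59.98 against 23.71, 34.12 and 43.29 (-0.59, SE 0.14).

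Signalling genes stood on both sides. BMP4, a ligand that drives mesoderm and amnion formation, had signals of 183.7, 169.5 and 178.8 against 266.8, 257.2 and 294.9 (0.58, SE 0.11). RGMB, a co-receptor for BMP ligands, had 217.3, 160.9 and 189.9 against 284.7, 241 and 310 (0.52, SE 0.13). Both genes were thus higher on every TCF7L1 siRNA array than on the non-silencing ones. For RGMB an untreated array, at 247.9, was above the lowest TCF7L1 siRNA array. LPAR6, a receptor for lysophosphatidic acid, had 70.21, 56.83 and 36.17 against 144.2, 131 and 104 (1.04, SE 0.18), the third array being the lowest of each group. GPR50, an orphan receptor related to the melatonin receptors, had 341.8, 345.8 and 296.7 against 513, 490.7 and 528 (0.62, SE 0.12). Within the cell, DUSP10, a phosphatase of stress-activated MAP kinases, differed by 0.59 (SE 0.16), RASGRF2, an exchange factor for Ras, by 0.54 (SE 0.14), and MCC, a protein named for colorectal cancer that can bind beta-catenin, by 0.52 (SE 0.12). On the lower side, DGKK, a diacylglycerol kinase, had 241.5, 247.2 and 213 against 147.4, 139 and 161.8 (-0.59, SE 0.10). CMKLR1, the chemerin receptor, differed by -0.59 (SE 0.14), NTS, the gene of the peptide neurotensin, by -0.53 (SE 0.15), and CAMK2N1, an inhibitor of the kinase CaMKII, by -0.51 (SE 0.13). FAM65B, an inhibitor of the GTPase RhoA now named RIPOR2, had the largest negative difference after TCF7L1. Its signals were 842.3, 551.9 and 546.2 against 420.8, 272 and 288.4 (-0.95, SE 0.19), with the first array high in both groups.

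Adhesion, surface and transport genes made up most of the remainder. FAT4, a giant atypical cadherin of planar cell polarity, had 82.58, 67.82 and 69.27 against 195.8, 144.8 and 240 (1.21, SE 0.19). Its difference was the second largest among the 31 higher genes, its 3 arrays were also above the untreated ones, of which the highest was 135.6, and its adjusted p was 0.148 in the limma fit. PHLDB2, which anchors microtubules at the cell cortex, differed by 0.51 (SE 0.11), and LRRTM1, a synaptic adhesion protein, by 0.51 (SE 0.11). CEACAM1, an adhesion molecule of the immunoglobulin superfamily, had 122.5, 81.98 and 81.67 against 78.06, 37.42 and 39.41 (-0.75, SE 0.22), where the first array of TCF7L1 siRNA nearly reached the other group. SLCO4C1, an organic anion transporter, had 624.9, 501.1 and 495.9 against 739.2, 956.4 and 1083 (0.75, SE 0.15). SLC39A8, an importer of zinc, had 539.5, 499.2 and 498 against 763, 736.1 and 819.9 (0.58, SE 0.09). CDK6, a kinase of the G1 phase, differed by 0.59 (SE 0.15), and RPRM, a protein that halts the cell cycle in G2, by 0.84 (SE 0.17).

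The rest of the set has little in common by function. HHLA1, a gene that starts at a human endogenous retroviral repeat, had 87.7, 73.52 and 80.69 against 161, 120.3 and 150.6 (0.72, SE 0.12). TMPRSS11E, a membrane serine protease, differed by 0.61 (SE 0.15), and FLJ38379, a dim gene with no current symbol matched, by 0.61 (SE 0.10). SNORD45B, a small nucleolar RNA that guides RNA methylation, differed by 0.60 (SE 0.24), and 1 untreated sample, at 305.5, was higher than all 3 TCF7L1 siRNA samples. Among lower genes, CLC, the Charcot-Leyden crystal galectin of eosinophils, had 119, 72.9 and 102.5 against 49.39, 40.7 and 42.31 (-0.91, SE 0.16). AIF1, a calcium-binding protein known from macrophages, had 266.4, 210.6 and 202.2 against 139.9, 137.5 and 135.4 (-0.65, SE 0.11). The membrane proteins TMEM14A and TMEM59L differed by -0.67 (SE 0.12) and -0.57 (SE 0.13). The pepsinogen genes PGA3, PGA4 and PGA5 differed by -0.59 each (SE 0.14), and since they are near-identical copies their probes cannot be told apart and they count as 1 observation.

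**Figure D3:**
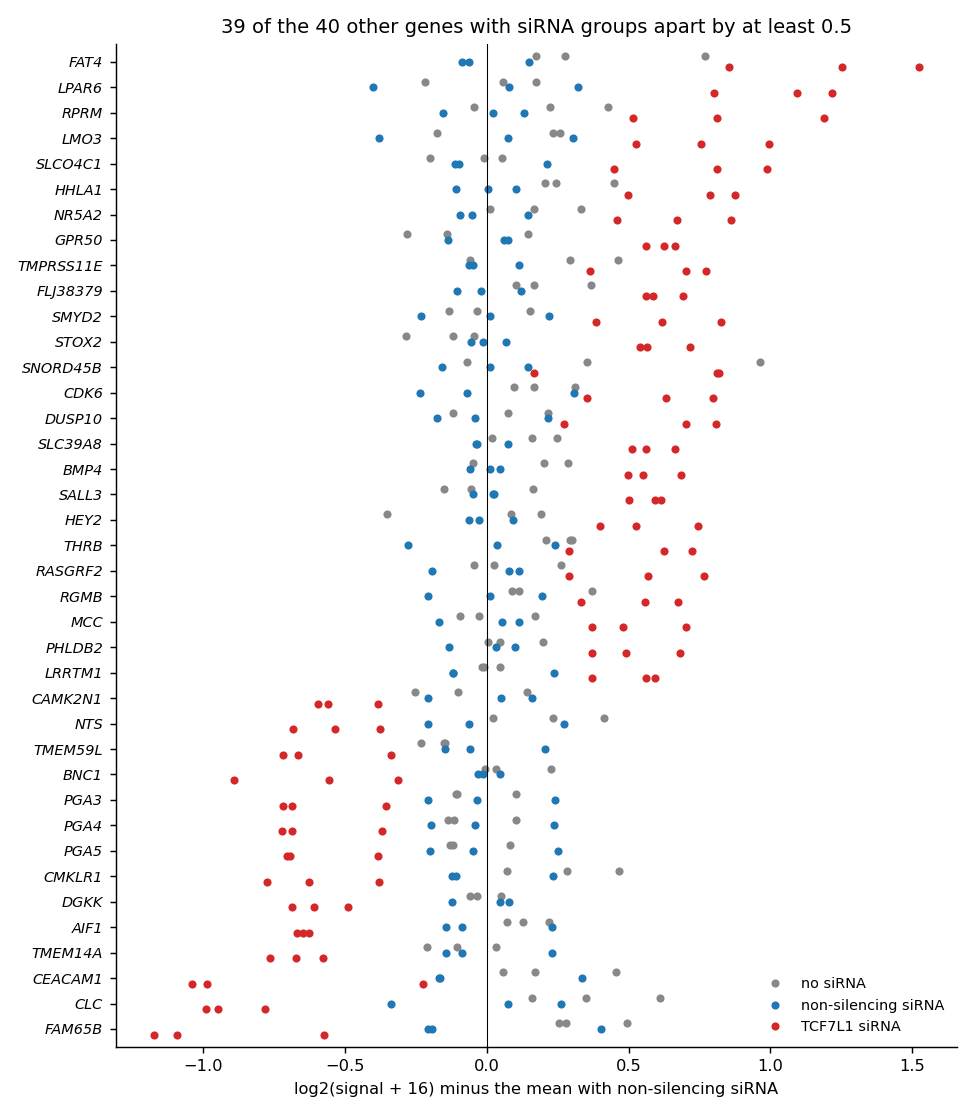
Each row is 1 of 39 of the 40 genes with siRNA groups apart by at least 0.5 that did not pass the threshold, and each point is 1 sample, as log2(signal + 16) minus the gene's mean with the non-silencing siRNA. The red points of TCF7L1 siRNA lie to one side of the blue points in every row, and grey points of untreated samples overlap them for TMPRSS11E, SNORD45B, THRB and RGMB.

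Holding the spread of each array as a covariate raised the number of genes past the threshold from 6 to 23, 15 higher and 8 lower, and 22 of the 23 were among the 46. The 6 genes all remained. Added were the higher genes FAT4 (limma adjusted p = 0.0368 in that fit), LPAR6 (0.0313), HHLA1 (0.0287), SLC39A8 (0.0295), STOX2 (0.0368), CDK6 (0.0372), SALL3 (0.0445), MCC (0.0419), FLJ38379 (0.039) and MMP2 (0.0424), and the lower genes AIF1 (0.0249), TMEM14A (0.0287), DGKK (0.0287), FAM65B (0.0295) and the 3 pepsinogen copies (0.0295 to 0.0368). Their differences barely moved, for example from 1.21 to 1.22 for FAT4 and from -0.59 to -0.59 for DGKK, and mainly their errors became smaller. MMP2, a gelatinase that degrades basement membrane, was the one gene outside the 46, with signals of 623.6, 540 and 504.3 against 812.6, 673.7 and 743.2 (0.41, SE 0.11).

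**Figure D4:**
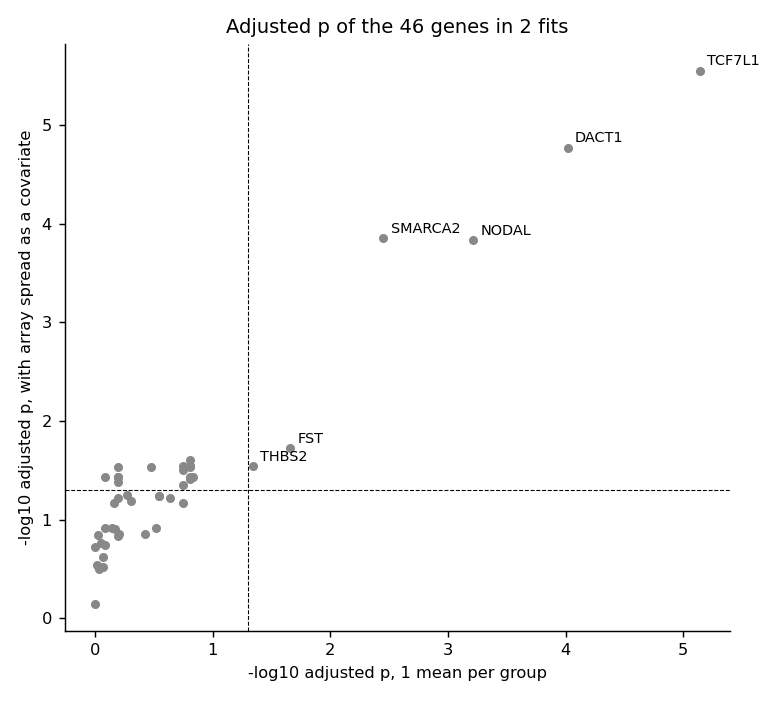
For the 46 genes, the adjusted p of the fit with 1 mean per group (horizontal) and of the fit with array spread as a covariate (vertical), both as -log10, with dashed lines at 0.05. The 6 labelled genes passed in both fits, and a cluster of genes to the left of the vertical line lies above the horizontal one, past the threshold in the second fit alone.

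Gene families were then described by counts and medians, beside 46.2% of all genes above 0, a median of -0.01 and groups apart in 1.93% (higher) and 3.47% (lower) of the genes. The 159 families and lists held 7076 of the tested genes, and 9 of them held a gene past the threshold. Medians ran from -0.123 to 0.174, and 3 were over 0.1 in size. In the plot of families below, most members of every family sit close to the median of all genes, and a few single members stand apart.

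**Figure D5:**
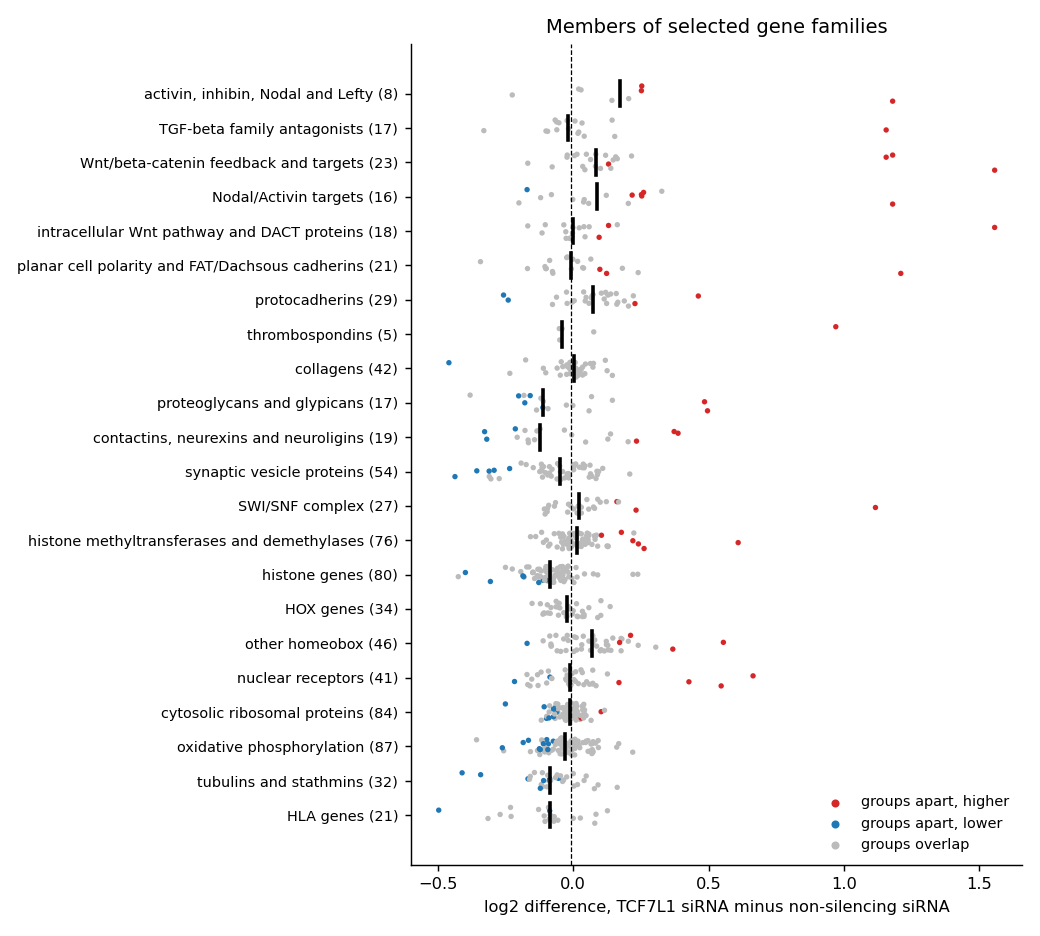
Log2 difference of every tested member of 22 families, with the number of members in brackets, a black bar at each family's median and a dashed line at the median of all genes. Red and blue points mark members whose siRNA groups did not overlap. The longest reach is to the right, up to 1.56 for DACT1, and the histone and tubulin families lie mostly left of the line.

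The Nodal and Activin group had the highest median of all families. Of 8 activin, inhibin, Nodal and Lefty genes, 7 were above 0, 1 (NODAL) rose, and the median was 0.17. Without NODAL 6 of 7 were above 0. LEFTY1 and LEFTY2, secreted inhibitors of Nodal, had signals of 222.7, 215.6 and 203.6 against 246.6, 262.9 and 264.5 (0.25, SE 0.12) and of 240.7, 258 and 262 against 290.7, 322.2 and 302.1 (0.25, SE 0.11). The groups were apart by small steps for both, and the untreated mean of LEFTY2, at 166.7, was lower than either. Among 16 Nodal and Activin targets 11 were above 0, at a median of 0.09, NODAL rose, and groups were apart in 5 higher members and 1 lower one, the higher ones including PMEPA1, an inhibitor of SMAD signalling (0.26, SE 0.10). Of 17 antagonists of the TGF-beta family, FST rose and no other member had groups apart. Of 16 activin, BMP and TGF-beta receptors none had groups apart. Among 18 BMP and GDF ligands BMP4 alone had groups apart.

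Most listed Wnt targets lay slightly above 0. Of 23 Wnt/beta-catenin feedback and target genes, 19 were above 0, with a median of 0.08, and 3 rose, namely DACT1, NODAL and FST. Groups were apart in 4 (17.4%), all higher, and these 3 are among them. The list was drawn up with the 3 genes known to have risen, so its counts cannot show a shift of Wnt targets. Without them 16 of 20 were above 0. AXIN2, the feedback gene most often used as a Wnt reporter, had signals of 198.1, 229.8 and 221 against 252.8, 219.8 and 259.9 (0.16, SE 0.10), with overlapping groups. SP5, a zinc finger target, had 375.2, 393.8 and 449.8 against 396.9, 474 and 422.6. Of 18 proteins of the intracellular Wnt pathway, DACT1 rose, and groups were apart in 3, among them NKD1, another Dishevelled-binding protein (0.13, SE 0.09). Ligands with groups apart were WNT8A, at 41.9, 35.65 and 36.42 against 60.12, 50.57 and 54.09 (0.39, SE 0.09), and WNT3, at 157.8, 146 and 152.4 against 196.3, 190.5 and 182.9 (0.29, SE 0.08), of 19 tested. WNT3 is a ligand of primitive streak formation in the mouse embryo. Among 15 Frizzled receptors and LRP co-receptors, FZD5 was higher with 623.9, 598.9 and 646.4 against 710.9, 696 and 906.1 (0.29, SE 0.12). FZD2 was lower with 678.1, 708.6 and 627.2 against 539.4, 513.4 and 515 (-0.35, SE 0.10). SFRP1, a secreted Wnt inhibitor, was lower with 2257, 2211 and 2026 against 1784, 1686 and 1786 (-0.30, SE 0.09). It was the only one of 9 secreted Wnt antagonists with groups apart.

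Matrix genes did not move as a group. Of 5 thrombospondins THBS2 rose, and no other member had groups apart. Of 42 collagens COL1A1 alone had groups apart, and it was lower, with 436.2, 404.4 and 441.1 against 321.6, 281.9 and 316.3 (-0.46, SE 0.09). COL1A1 is also a fibroblast marker and is itself part of the sum given above. The ranges of that sum barely overlapped, at 3231 to 3592 with the non-silencing siRNA and 2888 to 3235 with TCF7L1 siRNA. Whether fibroblasts had a part in the value was not tested. Proteoglycans had a median of -0.11, with 5 of 17 above 0, and groups were apart in 4 lower and 2 higher members. NCAN, a proteoglycan of nervous tissue, was one of the lower ones (-0.20, SE 0.09). VCAN, the large proteoglycan versican, had 1691, 1878 and 1705 against 2392, 2445 and 2617 (0.50, SE 0.09). GPC6, a glypican anchored to the cell surface, had 326.3, 310.4 and 284.9 against 438.8, 473.5 and 397.9 (0.48, SE 0.11). The groups of both were well apart. Among proteases and inhibitors, ADAMTS16 differed by 0.42 (SE 0.11), ADAMTS4 by -0.30 (SE 0.10) and TIMP4, an inhibitor of metalloproteinases, by 0.39 (SE 0.15), while TIMP1 had 1906, 1651 and 1629 against 1493, 1361 and 1456 (-0.26, SE 0.10). ITGB5, an integrin subunit that pairs with the alpha V chain, had 1395, 1219 and 1252 against 1766, 1622 and 1821 (0.43, SE 0.10), the 1 higher member of 21 integrins with groups apart, beside ITGB4, which was lower (-0.25, SE 0.10). Of the laminin chains LAMB1 differed by 0.36 (SE 0.14) and LAMB2 by -0.23 (SE 0.10).

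Cell adhesion families differed among themselves. Of 29 protocadherins 22 were above 0, with a median of 0.07. PCDH18 had 1223, 1238 and 1409 against 1585, 1654 and 2146 (0.46, SE 0.15), whereas PCDH1 had 960.1, 908 and 915.8 against 768.5, 772.3 and 779 (-0.26, SE 0.09). Of 21 genes of planar cell polarity and the FAT and Dachsous cadherins, 9 were above 0 and groups were apart in 3, all higher, of which FAT4 was by far the largest, with FAT3 at -0.34 (SE 0.14) and overlapping groups. Contactins, neurexins and neuroligins, which join neurons at synapses and axons, had the lowest median of all families, -0.12, with 7 of 19 above 0. Groups were apart in 3 higher and 3 lower members. The higher ones included CNTNAP2 (0.39, SE 0.10) and CNTNAP3 (0.37, SE 0.13), which has near-identical copies on the array, and the lower ones NLGN3 (-0.33, SE 0.10) and NRXN2 (-0.32, SE 0.09), so the family split. Of 25 claudins and tight junction genes groups were apart in 2 (8%), both lower, CLDN10 being one (-0.13, SE 0.09). Of 24 classical and desmosomal cadherins none had groups apart.

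Genes known from neurons stood on both sides. Synaptic vesicle proteins had 19 of 54 above 0, a median of -0.05, and groups apart in 5 members (9.26%), all lower. SYT4, a synaptotagmin of vesicle release, had 123.7, 139.1 and 143.9 against 91.16, 106 and 90.73 (-0.44, SE 0.11), and SYT2 had 465.5, 431 and 439.1 against 382.6, 317.1 and 335.5 (-0.36, SE 0.10). DNER, a neuronal Notch ligand, had 210.7, 172.8 and 189.7 against 148, 112.9 and 147.1 (-0.45, SE 0.11). POU3F1, a POU factor of neural ectoderm, had 397.7, 369.7 and 376.1 against 270.1, 216.3 and 345.1 (-0.46, SE 0.15). Against these stood OTX2, with 1616, 1664 and 1844 against 2086, 2014 and 2550 (0.37, SE 0.12), and CACNA2D1, a calcium channel subunit, at 0.41 (SE 0.11). Of 18 neural ectoderm genes 10 were above 0, so the list as a whole was close to all genes. PAX6, a further neural factor, had overlapping groups and was dim, at 17.59, 27.77 and 32.39 against 25.86, 29.39 and 36.05. Of 80 potassium channels 4 (5%) were lower with groups apart and 0 higher, and of 13 sodium channels 1 (7.69%) was lower. Over all genes the share in the lower direction was 3.47%.

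Transcription factor families held few members with groups apart. Homeobox genes outside the named classes had 33 of 46 above 0 and a median of 0.07, with groups apart in 4 higher and 1 lower. In other classes, the LIM homeobox gene LHX4 differed by 0.37 (SE 0.11), IRX2 had 420, 474.8 and 439.7 against 528, 590.8 and 606.2 (0.36, SE 0.10), and the forkhead gene FOXB1 had 260.4, 324.9 and 327.9 against 363.8, 490.6 and 416.9 (0.45, SE 0.13). Of 34 HOX genes, which pattern the body axis, none had groups apart. The same held for 15 T-box factors and 6 GATA factors, which include early regulators of mesoderm and endoderm. T, the primitive streak factor brachyury, had 77.95, 90.09 and 102.6 against 85.99, 96.74 and 110.7, EOMES had 166.7, 213.9 and 202.2 against 182.5, 199.3 and 197.6, and MIXL1 had 84.18, 91.61 and 81.45 against 85.93, 97.66 and 100.8. The groups overlapped for all 3, beside the rise of NODAL. Among 41 nuclear receptors groups were apart in 4 higher and 2 lower members. An oestrogen receptor, ESR2, was among the lower ones (-0.22, SE 0.10), and among the higher ones were NR5A2, THRB and NR3C1, the glucocorticoid receptor, at 268.2, 274.5 and 250.5 against 329.9, 324.9 and 437.7 (0.43, SE 0.13). KLF5, a factor of naive pluripotency, differed by 0.32 (SE 0.11), ETS1 by 0.35 (SE 0.10), TEAD1, the DNA-binding partner of YAP, by 0.27 (SE 0.09) and ZEB2, a repressor of epithelial genes, by 0.30 (SE 0.10). SNAI2, another repressor of epithelial genes, had 154.3, 140 and 152.4 against 96.89, 95.19 and 129.4 (-0.43, SE 0.15). Of 525 ZNF genes 296 were above 0, and groups were apart in 6 higher and 6 lower, each a smaller share than over all genes.

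In chromatin, SMARCA2 was the exception in its complex. Of 27 SWI/SNF subunits 17 were above 0, at a median of 0.02, and after SMARCA2 the 2 other members with groups apart were BCL11A (0.23, SE 0.10) and ARID1A (0.16, SE 0.09). Histone methyltransferases and demethylases had groups apart in 6 of 76 members, all higher, among them SMYD2, SETD7 (0.26, SE 0.10) and PRDM14, a factor of pluripotency and germ cells (0.24, SE 0.12). Of 19 histone deacetylases and sirtuins, and of 16 genes of DNA methylation, none had groups apart. Of 25 Polycomb proteins groups were apart in 2 higher and 2 lower. The higher ones were BMI1 (0.15, SE 0.10) and PHC2 (0.14, SE 0.09). The lower ones, PHC1 and JARID2, had 4532, 4420 and 4163 against 4055, 3887 and 3906 (-0.15, SE 0.08) and 3306, 3251 and 3063 against 2949, 2891 and 2918 (-0.13, SE 0.08). Histone genes had the smallest share of members above 0 of all 159 families. Of 80 tested, 8 (10%) were above 0, the median was -0.08, and groups were apart in 7, all lower (8.75%). HIST1H1A had 833.6, 792.4 and 991.6 against 695.4, 551.1 and 732.7 (-0.40, SE 0.13), and HIST1H3A had 832.2, 800.1 and 831.5 against 618.7, 622.3 and 749.9 (-0.31, SE 0.11). Many histone genes share sequence, so their probe sets are not independent measurements. After quantile normalization 10 of 80 were above 0, with a median of -0.07, and over 21 alternatives the median ran from -0.139 to 0.013, the last with array weights. None of the 80 passed the threshold.

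Genes of the basic cell machinery moved little, and the sign of some of their shifts changed with the scaling or with 1 array. Cytosolic ribosomal proteins had 29 of 84 above 0 and a median of -0.01, but 46 of 84 and 0.01 after quantile normalization. Groups were apart in 8 of them (9.52%) in the lower direction, among them RPL39L (-0.25, SE 0.11), and in 2 in the higher. Oxidative phosphorylation genes had 30 of 87 above 0, a median of -0.03 and 10 lower members with groups apart (11.5%). Their median was above 0, at 0.0025, without TCF7L1 replicate 2, one of the narrowest arrays. Proteasome subunits had 17 of 48 above 0 and a median of -0.03, and glycolysis genes 8 of 27 and -0.03. Of 36 aminoacyl-tRNA synthetases and of 77 mitochondrial ribosomal proteins none had groups apart. EEF1A2, an elongation factor of nerve and muscle, stood out among 72 translation factors, with 399.3, 349.8 and 328.6 against 295.7, 234.2 and 272.4 (-0.41, SE 0.11). These families are bright, and over the brightest 4489 of all genes 5.21% had groups apart in the lower direction.

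The cytoskeleton gave the family with the largest share of members apart in the lower direction. Tubulins and stathmins had 8 of 32 above 0, a median of -0.09 and groups apart in 8 (25%), all lower. The family is bright, with a median signal of 720, and over the brightest 4489 genes the share apart in the lower direction was 5.21%. STMN3, a neuronal stathmin that destabilizes microtubules, had 372.5, 372.5 and 392.5 against 285.5, 280 and 278.1 (-0.41, SE 0.09), and TUBB4, a beta-tubulin of brain, had 873.8, 792.3 and 778 against 586, 625.4 and 709.7 (-0.34, SE 0.12). Another tested probe set of TUBB4, a dimmer one, differed less, with means of 227.8 against 211.9 (-0.098). Over 21 alternatives the median of the family stayed below 0, between -0.101 and -0.041. Actins, myosins and tropomyosins had 5 of 68 higher and 2 lower with groups apart. RAB9A, a GTPase of late endosomes, had 429, 426.2 and 415 against 345.2, 271.5 and 331.2 (-0.41, SE 0.11), the lowest of 62 RAB genes, of which 3 lower and 1 higher had groups apart.

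Cell cycle and survival lists differed in the share of members above 0, which was 46.2% over all genes. Of 51 cyclins, cyclin-dependent kinases and inhibitors, 27 were above 0, and groups were apart in 3 higher and 2 lower. Beside CDK6, CCNE2, a cyclin of S phase entry, had 141.3, 131.7 and 119.4 against 172.3, 181.5 and 181.5 (0.41, SE 0.10) and CDK14 had 496.4, 423.3 and 401.5 against 621.4, 507.9 and 594.8 (0.37, SE 0.11). Of 34 DNA replication genes 8 were above 0, with a median of -0.03 that was above 0 without TCF7L1 replicate 2. Of 25 genes of the BCL2 family and caspases 6 were above 0, with a median of -0.04, and groups were apart in 2 higher and 2 lower. Of 21 p53 targets 15 were above 0, and groups were apart in 1, TP53INP1, which was lower (-0.22, SE 0.11).

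Among enzymes and carriers of aldehydes and retinoids, 17 of 47 were above 0, and groups were apart in 2 lower members and 1 higher one. CRABP2 and CRABP1, which carry retinoic acid within the cell, had 667.6, 530.1 and 527.8 against 446, 340.7 and 452.3 (-0.47, SE 0.13) and 2455, 2202 and 2026 against 1749, 1849 and 1777 (-0.31, SE 0.10). Another tested probe set of CRABP1, a dimmer one, differed less, with means of 112.7 against 107.2 (-0.07). ALDH3A2, a fatty aldehyde dehydrogenase in the same list, had 776.5, 710.6 and 647.5 against 951.2, 968.5 and 955.4 (0.43, SE 0.09). Sialyltransferases had 5 of 19 above 0 a median of -0.08 and groups apart in 2 lower and 1 higher, led by ST8SIA5, an enzyme of ganglioside synthesis, at 86.81, 89.02 and 79.29 against 53.93, 56.06 and 58.51 (-0.48, SE 0.09). Of 27 phosphodiesterases and adenylyl cyclases groups were apart in 2 higher and 2 lower. PDE1B, a calmodulin-dependent one, had 119.9, 99.06 and 107.1 against 195.3, 137.9 and 145.8 (0.48, SE 0.13). HMOX1, the haem oxygenase induced by oxidative stress, had 609.7, 615.1 and 605.5 against 481.7, 459.5 and 496.2 (-0.34, SE 0.10). None of 23 cholesterol synthesis genes had groups apart.

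Interferon and HLA genes were mostly below 0. Of 31 interferon-stimulated genes 9 were above 0, with a median of -0.06, OAS1, a sensor of double-stranded RNA, being higher with groups apart (0.22, SE 0.09) and IFI6 lower (-0.23, SE 0.09). HLA genes, which present peptides to T cells, had 5 of 21 above 0 and a median of -0.09. HLA-DRA, of class II, had 117, 87.39 and 79.17 against 77.22, 54.01 and 55.32 (-0.50, SE 0.14). Of 20 genes of the unfolded protein and integrated stress response, and of 14 genes of the RNA interference machinery, none had groups apart.

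Imprinted and noncoding genes held single members of note. H19, an imprinted noncoding RNA, had 278.4, 281.6 and 288.2 against 358.1, 382.3 and 376.7 (0.38, SE 0.09), with 2 higher and 3 lower members apart among 23 imprinted genes. Of 189 small nucleolar RNAs SNORD45B and its relative SNORD45C (0.35, SE 0.13) were the 2 with groups apart. They make up 1.06% of the family, a smaller share than the 1.93% of higher genes over all genes. DPPA3, a germ cell and naive pluripotency gene, had 116.8, 119.9 and 123.5 against 68.92, 80.64 and 110.1 (-0.43, SE 0.14).

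The lineage lists were led by the genes already given. Of 19 primitive streak and mesendoderm genes 14 were above 0 and NODAL rose, but the median of 0.04 was below 0, at the lowest -0.03, with array weights, without non-silencing replicate 1 and without TCF7L1 replicate 2. Of 16 definitive endoderm genes 13 were above 0, with a median of 0.04 that was below 0 with array weights and without non-silencing replicate 1. Groups were apart in 2 of them, both higher, and FOXA2, the pioneer factor of endoderm, had 72.09, 111 and 118.3 against 110.4, 158.8 and 125.7 (0.35, SE 0.16), with overlapping groups. In 21 primed pluripotency genes 12 were above 0 and groups were apart in 3 higher and 1 lower. SALL4 was one of the bright ones, with 2236, 2203 and 2193 against 2450, 2288 and 2323 (0.09, SE 0.08). SOX2 had 2632, 2359 and 2444 against 2583, 2174 and 2675, LIN28A 5708, 5600 and 5425 against 5597, 5627 and 5582, DNMT3B 2561, 2883 and 2645 against 2509, 2452 and 2711, and TDGF1 3044, 2917 and 3266 against 2545, 3399 and 3630. The groups overlapped for these 4 pluripotency genes, and differences were between -0.08 and 0.04. In trophoblast and amnion genes 6 of 17 were above 0, and KRT7, an epithelial keratin, was lower with groups apart (-0.23, SE 0.09). Genes of FGF and ERK feedback had 7 of 18 above 0, a median of -0.03 and groups apart in 2 lower and 1 higher, SPRY4, an inhibitor of the pathway, having 2125, 2006 and 1845 against 1682, 1621 and 1711 (-0.25, SE 0.09).

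With 3 arrays in each group the median standard error of a difference was 0.119. FAT4 and LPAR6, at 2.31-fold and 2.05-fold, did not pass the threshold, and a family given here without calls is not shown to be unchanged.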

How the data were processed

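RNA of 9 samples of H9 cells was measured on 1 array each, 3 per group. The deposited values are the authors' probe set intensities (signals) on a linear scale, from PLIER 2.0 within Affymetrix Expression Console 1.1.1 according to the submitters' processing notes, and they equalled the values of the deposited series matrix. No source used here gives the background and normalization settings. From these, log2(signal + 16) was computed. A probe set was tested if it exceeded the 25th percentile of its array on at least 3 arrays (22784 probe sets). limma 3.58.1 in R 4.3.3 was fitted on all 9 arrays with 1 mean per group, and p-values were adjusted with the Benjamini-Hochberg method over all 22784. Each gene took the probe set with the highest mean signal, among those with a chromosome and 1 symbol. The number of arrays limits the precision. The fit was tested on simulated data with independent errors. These data did not hold the unequal spread of the arrays, so the test cannot tell how the fit deals with it.

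Genes were named if they passed the threshold, were among the 15 highest or 15 lowest with groups apart, were among the 4 members with the largest difference of a family, or were markers and a short list of pluripotency and Wnt genes. The remaining genes of the 46 were named after their values were seen. The members, families and lists were chosen with earlier results of these data known. Same-numbered arrays of the siRNA groups correlated at 0.68, 0.17 and -0.04, so the numbers were not taken as pairs. Alternatives covered the offset, normalization, filter, samples, replicate block, array spread, array weights, source of values, probe set per gene and each array left out. Some genes are not reported here.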

Additional observations from a re-analysis of the deposited data

How the results depend on the processing

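In place of 6 genes past the limma threshold there were 4 to 6 with each array left out in turn, of which 4 or 5 were among the 6, the other being FAT4 without TCF7L1 replicate 2. There were 11 with a replicate block, 23 with array spread as a covariate and 222 with array weights, and these 3 counts include all 6. The weights gave non-silencing replicate 2 a weight of 8.53. THBS2 was lost with every array left out, after quantile normalization and without a filter, and both FST and THBS2 with an offset of 1, with only the 6 siRNA arrays and without the 2 narrowest arrays. NODAL was too dim to be tested with a filter at the array median. The replicate numbers were not shown to pair the samples. The 969 genes with groups apart became 1596 after quantile normalization, 963 to 2857 with each array left out and 4406 without the 2 arrays of narrowest spread, an alternative chosen after seeing the data. With fewer arrays, groups are apart more easily by construction: the count was 2080, 1504 and 2852 without non-silencing replicates 1, 2 and 3, and 2857, 2453 and 1986 without TCF7L1 replicates 1, 2 and 3. The 46 genes apart by at least 0.5 became 21 with an offset of 64, 78 without the 2 narrowest arrays, and 46 to 90 with each array left out, with 72 without non-silencing replicate 3 and 90 without TCF7L1 replicate 1.

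Among named genes, those that changed sign were close to 0 and never passed. SOX2 was at 0.0183 after quantile normalization, 0.0031 with array spread, 0.1223 with array weights and 0.0764 without the narrowest arrays, and from -0.0627 to 0.0856 with each array left out. EOMES was at 0.0047 after quantile normalization, 0.0068 without the narrowest arrays, and from -0.0999 to 0.0659 with each array left out. LIN28A was at -0.0013 with array weights, -0.0165 without the narrowest arrays, and from -0.0132 to 0.0233 with each array left out. TDGF1 ran from -0.0626 to 0.1922 with each array left out. Among family medians given in the text, those of SWI/SNF subunits and of cytosolic ribosomal proteins changed sign under 4 of 21 alternatives each. That of primitive streak and mesendoderm genes did so under 3, and that of definitive endoderm genes under 2. The medians of histone, oxidative phosphorylation and DNA replication genes did so under 1 each. So did those of the BCL2 family and caspases and of FGF and ERK feedback. The causes were not tested.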

Other observations

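Probe sets without a single gene symbol and a chromosome were outside the comparison of genes. Of these, 3268 were tested and 0 passed the limma threshold. Groups did not overlap in 48 higher and 43 lower ones, and the log2 differences ran from -0.689 to 0.855.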
